A study of Camelina sativa with 12 samples.

Results

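HVA22D, GEM-Related 5 and aldehyde oxidase 2 are 3 names under which the study discussed genes of the abscisic acid (ABA) response of Camelina sativa, an oilseed of the mustard family. They cover 5 gene IDs: HVA22D Csa10g018030 and Csa11g019700, GEM-Related 5 Csa13g015810 and Csa20g018560, and aldehyde oxidase 2 Csa04g022460. The number after Csa is the chromosome of the gene (10, 11, 13, 20 and 4). The 5 genes were taken from the 49932 genes listed, by ID, and all of them passed the filter on low values (1 CPM or more in at least 3 libraries), as did 49928 genes in all. The names come from the study, which picked these genes on the same libraries, so a call of salt induction below is not independent evidence of its direction. The study listed the HVA22D genes as raised in both organs, and GEM-Related 5 and aldehyde oxidase 2 in shoots. The organ in which a call falls is therefore not independent evidence either.

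RNA was sequenced from roots and shoots of DH55, a single doubled haploid line, when the plants were 28 days old. The study's methods name library kits for both mRNA and total RNA. Control plants received tap water, and salt-treated plants received NaCl at 192 mM (an electrical conductivity of 15 dS per m) from day 7 after sowing, for 21 days, as the labels give it. The growth section of the study's methods gives a later start, so how long these plants had been treated is uncertain. Crossing organ with treatment gave 4 groups of 3 biological replicates, and how many plants went into a replicate is not stated in the labels or methods. All plants of both treatments shared the line, the potting mixture and the growth chamber conditions.

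ABA is the hormone through which plants answer water shortage and salt. It is made from carotenoids: zeaxanthin epoxidase (ABA deficient 1) supplies the epoxidised precursors, a 9-cis-epoxycarotenoid dioxygenase (NCED) cleaves them, and an aldehyde oxidase carries out the last step, from abscisic aldehyde to ABA. Bound to its receptors, ABA blocks protein phosphatases of type 2C such as HAI1 and so frees kinases that activate ABF transcription factors, which bind ABA-responsive elements in the promoters of target genes. HVA22 was first described in barley as a membrane protein gene induced by ABA and stress, and HVA22D is one of its Arabidopsis relatives. GEM-Related 5 is known in Arabidopsis as an ABA-responsive gene with a GRAM domain. Aldehyde oxidase 2 belongs to a small Arabidopsis family in which aldehyde oxidase 3 is the member best known for the ABA step.

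Values are CPM (counts scaled to library size) that the authors normalized further and rounded, so 1 CPM is the smallest step, and the read depth behind a value is unknown here. Library totals over all genes were 882288 to 938888 CPM in root libraries and 1077479 to 1117956 CPM in shoot libraries. The 6 leaf marker genes, Rubisco small chain and chlorophyll-binding protein genes, summed to 18083 to 19923 CPM in control shoots and 9658 to 12169 CPM in salt-treated shoots. The same sum was 12 to 29 CPM in control roots and 75 to 201 CPM in salt-treated roots. The sodium transporter gene HKT1 Csa13g047450, taken as a root marker, stood at 2 to 33 CPM in root libraries and at 0 in every shoot library. This holds for that gene ID only. The study reports another HKT gene as lowered by salt in shoots and raised in roots, and its values were not examined here. Without gene lengths, the levels of different genes were not compared with each other. In bulk RNA of an organ, fewer cells of a type and less RNA per cell cannot be told apart. A gene is called below when the adjusted p was at most 0.05 (limma over all genes tested, Benjamini-Hochberg adjustment) and the log2 change was above 1 in size.

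Salt raised both HVA22D copies in both organs, by 4.93 and 6.9 times in roots and 4.16 and 8.4 times in shoots. Both GEM-Related 5 copies rose in shoots, by 5.43 and 3.42 times, and their root change was called lower than their shoot change. Aldehyde oxidase 2 rose 5.67 times in shoots, from 1 CPM in every control library. In roots, 2 of the 5 genes were called higher with salt, where 8.22% of all genes tested were. In shoots 5 of 5 were called higher, against 10.8% of all genes. The median log2 change of the 5 genes was 0.74 in roots and 1.94 in shoots, and that of all genes tested was 0 in both organs.

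**Figure D1:**
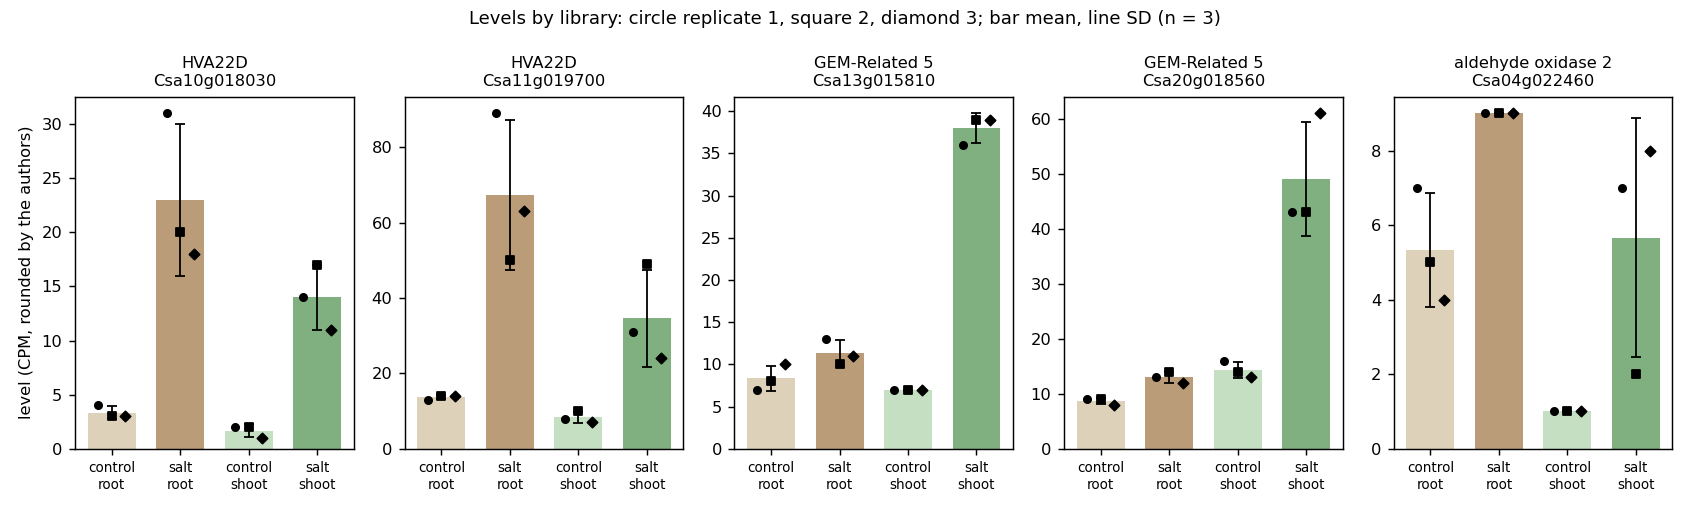
Level of each of the 5 genes in every library, in CPM on a linear axis from 0 that is scaled for each gene. Bars are means of 3 libraries, lines are SD, and symbols are the replicates. Salt-treated roots have the highest bar for both HVA22D copies (23 and 67.3 CPM), and salt-treated shoots for both GEM-Related 5 copies (38 and 49 CPM).

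Without overlap between groups, all 3 salt-treated libraries stood above all 3 controls for 4 of the 5 genes in roots and for all 5 in shoots. In roots 25.3% of all genes tested showed this separation, and in shoots 25.2%. The exception was Csa13g015810 in roots, where a control and a salt-treated library shared the value of 10 CPM.

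HVA22D Csa10g018030 was listed at 4, 3 and 3 CPM in control roots (replicates 1 to 3) against 31, 20 and 18 CPM in salt-treated roots. In shoots it stood at 2, 2 and 1 CPM without salt and at 14, 17 and 11 CPM with salt. Salt-treated and control libraries were far apart in both organs, and every salt-treated root library lay above every salt-treated shoot library, though by 1 CPM at the closest. The mean rose from 3.33 ± 0.577 to 23 ± 7 CPM in roots (SD, n = 3), and from 1.67 ± 0.577 to 14 ± 3 CPM in shoots. On the log2 scale of CPM plus 0.5 the change was 2.59 in roots (SE 0.25, 95% interval 2.03 to 3.14, limma adjusted p = 1.49e-05) and 2.76 in shoots (SE 0.25, interval 2.20 to 3.32, adjusted p = 6.59e-06). Since the control values are a few CPM rounded to whole numbers, the ratio of means could lie between 5.87 and 8.29 in roots and between 6.23 and 12.4 in shoots by rounding alone. Among all genes tested, 564 had a higher log2 change in roots and 950 in shoots.

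Csa11g019700, the other HVA22D copy, was listed at 13, 14 and 14 CPM in control roots against 89, 50 and 63 CPM in salt-treated roots. Its shoot values were 8, 10 and 7 CPM in controls and 31, 49 and 24 CPM with salt. The 2 organs followed the same order as in the first copy: salt-treated roots, salt-treated shoots, control roots, control shoots, with no overlap between neighbouring groups. The mean rose from 13.7 ± 0.577 to 67.3 ± 19.9 CPM in roots and from 8.33 ± 1.53 to 34.7 ± 12.9 CPM in shoots (SD, n = 3). The log2 change was 2.22 in roots (SE 0.25, 95% interval 1.67 to 2.77, limma adjusted p = 3.79e-05) and 1.94 in shoots (SE 0.25, interval 1.39 to 2.49, adjusted p = 7.09e-05).

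For neither HVA22D copy was the salt effect called different between roots and shoots. The root effect minus the shoot effect was -0.17 for Csa10g018030 (95% interval -0.96 to 0.61, limma adjusted p = 0.769) and 0.28 for Csa11g019700 (interval -0.50 to 1.05, adjusted p = 0.621). These intervals leave room for a difference of close to 1 on the log2 scale in either copy. The copies were higher in roots than in shoots in both treatments, by a log2 difference of 0.85 (adjusted p = 0.0119) and 0.69 (adjusted p = 0.0306) without salt and of 0.68 (adjusted p = 0.0356) and 0.97 (adjusted p = 0.00535) with salt. In the main fit all 4 differences passed the adjusted p and missed the fold threshold. Each also missed the adjusted p under some other setting of the processing. Without salt the limma adjusted p reached 0.0554 for Csa10g018030 and 0.111 for Csa11g019700. With salt it reached 0.157 and 0.0567.

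The replicates spread more with salt than without it in HVA22D. Summed over both copies, the 3 control root libraries stood at 17 CPM each, and the salt-treated root libraries at 120, 70 and 81 CPM. The sum was 10, 12 and 8 CPM in control shoots and 45, 66 and 35 CPM in salt-treated shoots. Replicate 1 was the highest of the salt-treated roots and replicate 2 the highest of the salt-treated shoots, for each copy. The same salt-treated root library also held the most leaf marker RNA (201 CPM, against 75 and 112), and it was the highest of its group for 19 of 20 other ABA genes. The part of either in the HVA22D result was not tested. Without that library the root change was 2.36 for Csa10g018030 (limma adjusted p = 9.72e-05) and 2.00 for Csa11g019700 (adjusted p = 0.000259), and both were still called.

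Csa10g018030 held a smaller part of the summed HVA22D level than Csa11g019700 in every library, between 12.5% and 31.4%. Its share was 23.5%, 17.6% and 17.6% in control roots and 25.8%, 28.6% and 22.2% in salt-treated roots. In shoots the share was 20%, 16.7% and 12.5% without salt and 31.1%, 25.8% and 31.4% with salt. The share was higher with salt in both organs, with an overlap in roots and none in shoots. The log2 ratio of Csa10g018030 to Csa11g019700 was 0.59 higher with salt, averaged over the organs (exact permutation test within organs, two-sided, p = 0.01, where 0.005 is the smallest p that 400 arrangements can give). In roots alone the difference was 0.37 (exact p = 0.2) and in shoots alone 0.82 (exact p = 0.1, the smallest that 3 libraries against 3 allow). Rounding could place the mean difference anywhere from 0.22 to 1.02. The shares rest on CPM, not on values per length, and the labels and methods do not say how reads that match both copies were counted, so the split between copies is uncertain.

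**Figure D2:**
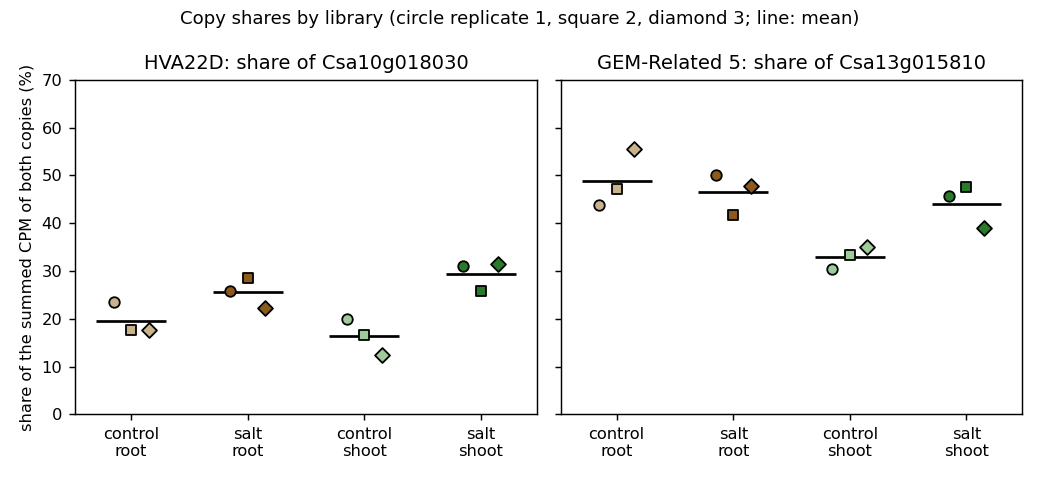
Share of the first copy in the summed CPM of both copies, in percent, for HVA22D (left) and GEM-Related 5 (right), by group and replicate, with the group mean as a line. Csa10g018030 averages 19.6% in control roots, 25.5% in salt-treated roots, 16.4% in control shoots and 29.4% in salt-treated shoots. Csa13g015810 averages 32.9% in control shoots and 44% to 48.8% in the other groups.

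GEM-Related 5 Csa13g015810 was listed at 7, 8 and 10 CPM in control roots against 13, 10 and 11 CPM in salt-treated roots. In shoots it stood at 7 CPM in each control library and at 36, 39 and 39 CPM with salt. The salt-treated shoots stood apart from the other 3 groups, which lay within 7 to 13 CPM. The shoot mean rose from 7 ± 0 to 38 ± 1.73 CPM (SD, n = 3), a log2 change of 2.36 (SE 0.13, 95% interval 2.08 to 2.64, limma adjusted p = 1.94e-07). In roots the means were 8.33 ± 1.53 and 11.3 ± 1.53 CPM, and the log2 difference of 0.43 (SE 0.13, interval 0.15 to 0.71, adjusted p = 0.0166) missed the fold threshold. Without replicate 1 of the salt-treated roots the latter was 0.33, with an adjusted p of 0.0698. Control roots and control shoots overlapped at 7 CPM (log2 difference 0.22, adjusted p = 0.149).

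The other copy, Csa20g018560, was listed at 9, 9 and 8 CPM in control roots against 13, 14 and 12 CPM in salt-treated roots. Its shoot values were 16, 14 and 13 CPM without salt and 43, 43 and 61 CPM with salt. Salt-treated shoots were again the highest group, control shoots and salt-treated roots overlapped at 13 to 14 CPM, and control roots were the lowest. The shoot mean rose from 14.3 ± 1.53 to 49 ± 10.4 CPM (SD, n = 3), a log2 change of 1.72 (SE 0.14, 95% interval 1.42 to 2.02, limma adjusted p = 2.41e-06). The root means were 8.67 ± 0.577 and 13 ± 1 CPM, a log2 difference of 0.56 (SE 0.14, interval 0.26 to 0.86, adjusted p = 0.00601) that missed the fold threshold although the groups did not overlap. Control roots lay below control shoots in every library, by a log2 difference of -0.69 (adjusted p = 0.000906), also short of the fold threshold.

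For both GEM-Related 5 copies the salt effect was called lower in roots than in shoots, a call that 6.25% of all genes tested received. The study had listed both copies under shoots on these libraries, so this direction is not independent evidence. The root effect minus the shoot effect was -1.93 for Csa13g015810 (SE 0.18, 95% interval -2.32 to -1.54, limma adjusted p = 5.23e-05). It was -1.17 for Csa20g018560 (SE 0.19, interval -1.59 to -0.74, adjusted p = 0.00166), close to the fold threshold. Replicate 3 of the salt-treated shoots, at 61 CPM, decided the second call: without it the difference was -1.0 (adjusted p = 0.00166) and was no longer called, and 1 of the 5 genes was then called instead of 2. With salt, roots were called lower than shoots for both copies, 3.35-fold for Csa13g015810 (log2 difference -1.71, adjusted p = 2.65e-07) and 3.77-fold for Csa20g018560 (-1.86, adjusted p = 2.42e-07). In that comparison 18.2% of all genes tested were called lower in roots.

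**Figure D3:**
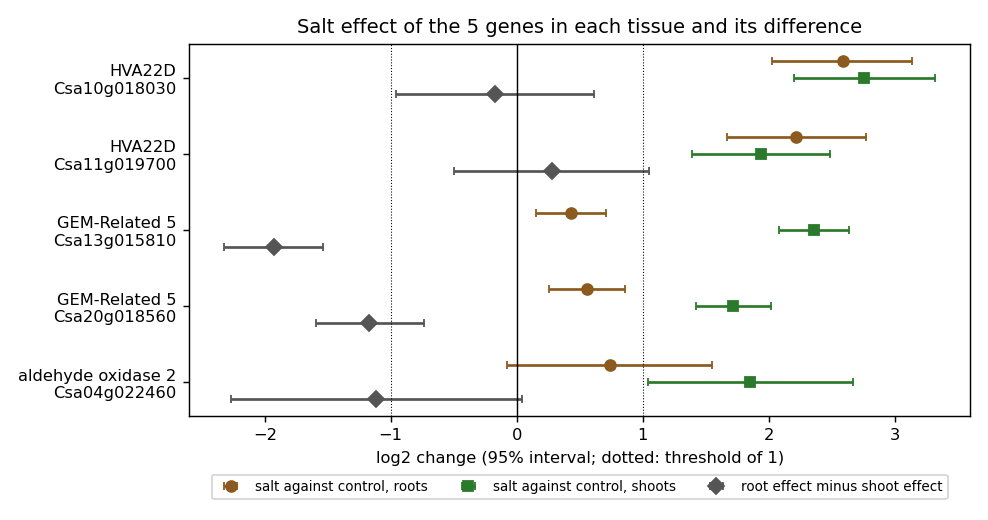
Log2 change with salt in roots (circles) and shoots (squares) and the root effect minus the shoot effect (diamonds) for the 5 genes, with 95% intervals from limma; dotted lines mark the fold threshold of 1. The intervals of both HVA22D copies lie above 1 in both organs, and the interval of the difference between organs lies below -1 for Csa13g015810 (-1.93, interval -2.32 to -1.54).

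Summed over both GEM-Related 5 copies, the level was 16, 17 and 18 CPM in control roots and 26, 24 and 23 CPM in salt-treated roots. In shoots the sum was 23, 21 and 20 CPM without salt and 79, 82 and 100 CPM with salt. The ratio of mean sums was 1.43 in roots and 4.08 in shoots, where for HVA22D it was 5.31 in roots and 4.87 in shoots. The copies took near equal parts of the root sum: Csa13g015810 held 43.8%, 47.1% and 55.6% in control roots and 50%, 41.7% and 47.8% in salt-treated roots. In control shoots its share was 30.4%, 33.3% and 35%, and in salt-treated shoots 45.6%, 47.6% and 39%, with no overlap between these groups. Averaged over the organs the log2 ratio of Csa13g015810 to Csa20g018560 was 0.25 higher with salt (exact permutation test within organs, two-sided, p = 0.21). It was -0.13 in roots (exact p = 0.7) and 0.64 in shoots (exact p = 0.1, the smallest possible), and the difference between the organs in this ratio was not tested.

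Leaf marker RNA in salt-treated roots was set beside the root values of the 5 genes. Of the 6 leaf markers, 4 were called higher in salt-treated roots, where 8.22% of all genes tested were. The study had named these 4 as raised by salt in roots on the same libraries, so their calls are not independent evidence. The others, chlorophyll-binding protein genes Csa14g037480 and Csa06g036870, were at 0 in every root library. They averaged only 6.67 and 9.67 CPM in salt-treated shoots, so a few percent of that level would be rounded to 0. The root increase with salt came to 0% to 4.58% of the salt-treated shoot level for the 6 markers. The same measure was 7.89% for Csa13g015810 and 8.84% for Csa20g018560, 140% and 155% for HVA22D Csa10g018030 and Csa11g019700, and 64.7% for aldehyde oxidase 2 Csa04g022460.

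Aldehyde oxidase 2 Csa04g022460 had the widest standard error of the 5 genes. It was listed at 7, 5 and 4 CPM in control roots and at 9 CPM in each of the 3 salt-treated root libraries. In shoots it stood at 1 CPM in each control library and at 7, 2 and 8 CPM with salt. Salt-treated roots were the highest group and control shoots the lowest, and salt-treated shoots overlapped with control roots. The shoot mean rose from 1 ± 0 to 5.67 ± 3.21 CPM (SD, n = 3), a log2 change of 1.85 (SE 0.37, 95% interval 1.04 to 2.67, limma adjusted p = 0.00151). As a value of 1 CPM can stand for anything that rounds to it, the ratio of 5.67 could lie between 3.44 and 12.3.

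In roots the aldehyde oxidase 2 means were 5.33 ± 1.53 CPM without salt and 9 ± 0 CPM with salt, and the log2 difference of 0.74 (SE 0.37, 95% interval -0.08 to 1.55, limma adjusted p = 0.129) did not pass. That adjusted p depended on the shoot libraries in the shared model. It was 0.037 with each organ fitted alone and 0.00495 without replicate 2 of the salt-treated shoots. The difference of 0.74 missed the fold threshold in both. The root effect minus the shoot effect was -1.12 (interval -2.27 to 0.04, adjusted p = 0.15). This call turned on replicate 2 of the salt-treated shoots, at 2 CPM. Without that library the difference was -1.68 (adjusted p = 0.00114) and was called, which made 3 of the 5 genes called lower in roots, and the shoot change was 2.41. Without salt, aldehyde oxidase 2 was higher in roots than in shoots in every library, with a log2 difference of 1.93 (SE 0.37, interval 1.11 to 2.74, adjusted p = 0.000782). It was the 1 gene of the 5 called higher in control roots, where 15.3% of all genes tested were. With salt the difference between the organs was 0.81 (adjusted p = 0.0781).

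The 3 salt-treated shoot libraries did not rank alike over the 5 genes. Replicate 2 was the highest for both HVA22D copies and the lowest for aldehyde oxidase 2, and replicate 3 was the highest for aldehyde oxidase 2 and Csa20g018560 and the lowest for both HVA22D copies. In salt-treated roots replicate 1 was the highest for 3 of the 5 genes.

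The other ABA genes of the study's text gave 20 IDs, all tested: 8 of ABF1 to ABF4, 3 of NCED2, 3 of NCED3, 3 of ABA deficient 1 and 3 of HAI1. The study chose them on these libraries too, and it listed ABF1, NCED2 and some ABF2 and ABF4 genes under roots. Differences between organs in these genes are thus not independent evidence. In roots 20 of 20 were called higher with salt, against 8.22% of all genes tested, with a median log2 change of 2.14. In shoots 17 of 20 were, against 10.8% of all genes, with a median of 1.86. The salt effect was called higher in roots than in shoots for 4 of the 20, where 6.09% of all genes were, and lower for 1, where 6.25% were. The 3 not called in shoots were ABF1 Csa17g085550 (0.61, limma adjusted p = 0.00959) and the NCED2 genes Csa11g030120 and Csa10g026860 (both 0).

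The NCED genes, which act upstream of aldehyde oxidase in ABA synthesis, differed in the organ of their highest level. NCED3 Csa15g018820 was listed at 0 in the control roots, at 9, 6 and 4 CPM in salt-treated roots, at 1 CPM in each control shoot library and, among salt-treated shoots, at 72, 21 and 43 CPM. NCED2 Csa11g030120 was at 13, 7 and 8 CPM in salt-treated roots and at 0 in all 9 other libraries. In salt-treated shoots replicate 2 was the lowest for NCED3 Csa15g018820, as it was for aldehyde oxidase 2. NCED3 Csa15g018820 was chosen after its values were seen. The phosphatase gene HAI1 Csa17g010800 had the largest log2 change of the 20 in both organs, 4.51 in roots and 5.92 in shoots. It was at 1 CPM in control roots and 0 in control shoots, against 55, 28 and 25 CPM in salt-treated roots and 39, 22 and 31 CPM in salt-treated shoots. With control values this low, the size of these changes depends on the pseudocount. The next largest change in shoots was that of HAI1 Csa14g008830, at 5.09.

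**Figure D4:**
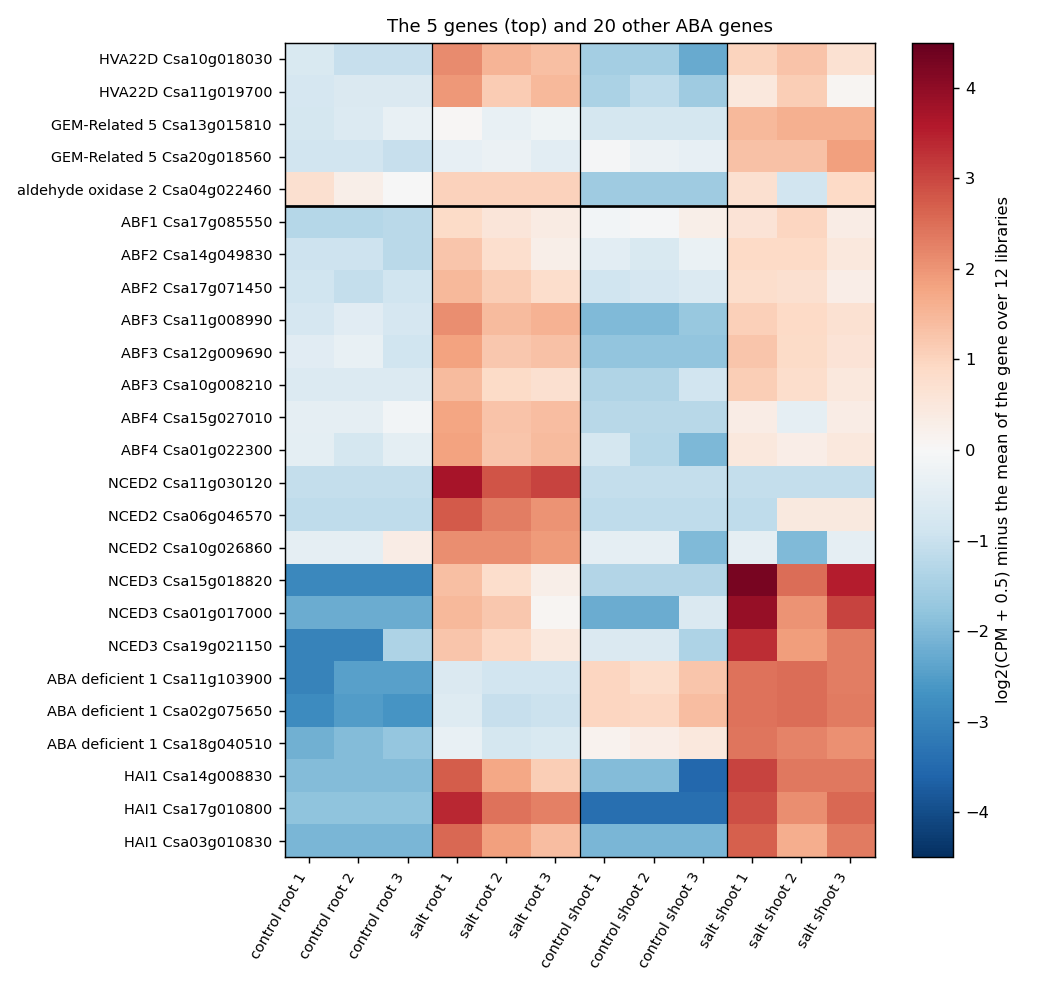
Heat map of the 5 genes (above the line) and the 20 other ABA genes in each of the 12 libraries. Colour is log2(CPM + 0.5) minus the mean of the gene over the 12 libraries. HVA22D is red in salt-treated libraries of both organs, like most ABF genes, while GEM-Related 5 is red mainly in salt-treated shoots.

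Each of the 5 genes was also set beside 200 genes named by the study at a mean of at least 2 CPM, by the root mean square difference (RMSD) of their centred log2 values over the 12 libraries. Smaller values are more alike. Csa10g018030 lay closest to the ABF3 genes Csa11g008990 (0.329) and Csa12g009690 (0.34), then to the other HVA22D copy (0.38). ABF3 Csa11g008990 stood at 10, 12 and 10 CPM in control roots, 76, 47 and 52 CPM in salt-treated roots, 4, 4 and 5 CPM in control shoots and 37, 33 and 28 CPM in salt-treated shoots, which is the group order of HVA22D. Csa11g019700 lay closest to the calcium-transporting ATPase gene Csa11g090670 (0.241), which had the smallest RMSD to it of all genes tested at that level, then to ABF4 Csa01g022300 (0.366).

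Csa13g015810 lay closest to the metal detoxification protein gene Csa02g048960 (0.325), which was listed at 4, 6 and 4 CPM in control shoots and 22, 19 and 31 CPM in salt-treated shoots. Csa20g018560 lay closest to phosphate transporter 4 Csa08g014220 (0.214), at 8, 7 and 6 CPM in control shoots and 24, 18 and 24 CPM in salt-treated shoots. The GEM-Related 5 copies were 0.408 apart, farther than either was from its nearest named gene. Aldehyde oxidase 2 had no named gene as close: its nearest was the glycolate oxidase gene Csa10g026850, at 0.488. Among all 47670 genes compared, this gene had rank 240. The nearest named gene had rank 26 for Csa13g015810, rank 6 for Csa20g018560 and rank 3 for Csa10g018030. Genes that the study did not name were thus closer in each of these cases. These distances are descriptions over 12 libraries that share groups and scaling.

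Beside the 5 genes on their chromosomes, the 5 listed genes before and the 5 after each (50 in all) were called higher with salt in 10 cases and lower in 3 in roots. Over all genes tested 8.22% were called higher in roots and 7.85% lower. In shoots 9 of the 50 were called higher and 1 lower, against 10.8% and 8.87% of all genes. At 3 positions before each GEM-Related 5 copy lay a gene of SAG29, a sugar transporter of the SWEET family that is expressed in senescing leaves of Arabidopsis. The SAG29 gene Csa20g018520 stood at 33, 10 and 41 CPM in salt-treated shoots, at 2, 1 and 0 CPM in salt-treated roots and at 0 in every control library. Its partner Csa13g015780 stood at 8, 3 and 12 CPM in salt-treated shoots, at 1 CPM in each salt-treated root library and at 0 in the controls. Right after each GEM-Related 5 copy lay a gene without a name in the sources used here: Csa20g018570 averaged 0 CPM in control shoots and 42.7 CPM in salt-treated shoots (log2 change 6.35), and Csa13g015820 averaged 1 and 7.67 CPM (2.38). Both were called higher with salt in roots too. There Csa20g018570 averaged 1.33 CPM without salt and 11.3 CPM with salt (2.62), and Csa13g015820 averaged 1 and 4 CPM (1.56). These last 2 genes were chosen after their values were seen.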

How the data were processed

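RNA-seq was run on 12 libraries from DH55 roots and shoots. Per the labels and methods, the authors trimmed reads with Trimmomatic, mapped them with STAR, divided counts by library size to CPM, normalized these with DESeq and rounded them. The deposited values are therefore a score (normalized CPM in whole numbers), not counts. The planned limma test for CPM was kept, and no count model was run. Tool versions were not found in the labels or methods.

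Values plus 0.5 were taken to log2. A gene needed 1 CPM in 3 libraries to enter limma 3.58.1 (R 4.3.3), fitted as one model of 4 groups with a variance trend (8 residual degrees of freedom, median prior 3.23). The 5 contrasts were tested, with Benjamini-Hochberg adjustment over 49928 genes. Calls needed an adjusted p of at most 0.05 and a log2 change above 1 in size. Copy ratios were compared by exact permutation within organs. The model was tested on simulated data.

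The 5 genes, the 20 other ABA genes of the study, the leaf markers and the rules for similar and neighbouring genes were chosen with earlier results of these data known. All 5 genes are described in every contrast. Of the other 20, the 2 with the largest rise in each organ and those not called are named, with up to 3 similar genes per member that the study names. The 3 HVA22B and HVA22J genes looked for by ID were not found among the genes listed, so they are not analysed here. Same-numbered salt-treated root and shoot libraries deviated together over 12286 genes at 20 CPM or more (r = 0.283, 0.399 and 0.144). Some libraries with unlike numbers and treatments reached similar values, and the titles do not say that roots and shoots came from the same plants. Whether the numbers pair them is therefore uncertain. The values given for organs with salt come from the fit without a replicate block, and the block changed no call among them. No sequence, coordinate or gene length was used. The alternatives were other pseudocounts, filters, scalings, separate fits, no moderation, a replicate block and each library left out in turn.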

Additional observations from a re-analysis of the deposited data

Results flagged for a closer look

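The salt effect differed between roots and shoots, by a test of the difference itself (limma interaction, adjusted p at most 0.05 and a log2 difference above 1 in size), for both GEM-Related 5 genes. The root effect minus the shoot effect was -1.93 on the log2 scale for Csa13g015810 and -1.17 for Csa20g018560. Of the 20 other ABA genes, 5 passed the same test, 4 of them with the larger effect in roots (6.09% of all genes tested) and 1 with the larger effect in shoots (6.25%). The root effect was the larger by 1.25 for ABF1 Csa17g085550, and by 4.25, 2.46 and 2.20 for the NCED2 genes Csa11g030120, Csa06g046570 and Csa10g026860. It was the smaller for HAI1 Csa17g010800, at -1.41. On these libraries the study had listed ABF1 and NCED2 under roots and GEM-Related 5 under shoots. Their directions here are thus not independent evidence. Of the neighbouring genes named, both SAG29 genes passed, at -4.31 for Csa20g018520 and -2.26 for Csa13g015780. NCED2 Csa11g030120 is listed at 0 in every shoot library, and NCED2 Csa06g046570 and both SAG29 genes at 0 in every control library. HAI1 Csa17g010800 is listed at 1 CPM in each control root library and at 0 in each control shoot library, a single rounding step apart. The fitted differences of all these genes therefore depend on the pseudocount. Single outlying libraries were not looked for, since every group held 3.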

How the results depend on the processing

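Of the 5 genes, 2 were called higher with salt in roots and 5 in shoots under all 21 settings, and none of these called salt effects changed sign. The count of genes whose salt effect was called lower in roots ran from 1 to 3 with single libraries left out. Without replicate 3 of the salt-treated shoots it was 1 and Csa20g018560 stood at -1.0 (range over left-out libraries -1.25 to -1.0). That library held 61 CPM of Csa20g018560, against 43 and 43 CPM in replicates 1 and 2. Without replicate 2 of the salt-treated shoots Csa04g022460 stood at -1.68 (range -1.68 to -0.79). With a pseudocount of 0.1, 2 genes instead of 1 were called higher in control roots than in control shoots (Csa10g018030 at 1.01). With salt, Csa11g019700 was called higher in roots at 1.18 under quantile normalization and at 1.16 or 1.25 without replicate 2 of the salt-treated roots or shoots, and Csa04g022460 at 1.13 without replicate 3 of the salt-treated shoots. The HVA22D copy ratio differed by 0.37 in roots alone and 0.82 in shoots alone (exact p = 0.2 and 0.1, where 3 against 3 cannot go lower than 0.1).

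Same-numbered salt and control libraries gave mixed correlations of their deviations (r = -0.173, 0.124 and 0.302 in roots, -0.243, 0.166 and -0.0166 in shoots), not every library correlated best with its own number, and the numbers were not taken as pairs. A replicate block changed no call of the 5 genes, paired or not: the salt effect difference of Csa20g018560 was -1.17 with the block (limma adjusted p = 0.00474), and 2 genes were called lower in salt-treated roots than in salt-treated shoots. The precision is limited by whole-number CPM values below about 10 and by 3 libraries a group.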
